A study of Mus musculus with 6 samples.

Results

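Microglia sense nucleotides that neighbouring cells release. The 8 genes described here encode 5 receptors for ATP, ADP or UDP (P2ry12, P2ry13, P2ry6, P2rx4 and P2rx7), the lysophosphatidylserine receptor GPR34, which is related to the P2Y12 receptor in sequence, the surface enzyme CD39 (Entpd1), which breaks ATP and ADP down to AMP, and the adenosine A3 receptor (Adora3). They were taken from the deposited count table by gene symbol, 1 row per Ensembl identifier, and all 8 were found among 55487 genes. All 8 passed the filter on low counts, after which 15787 genes were tested.

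The libraries came from cortical microglia of 6 female mice aged 20 months, 1 mouse per library. The knockout group was 3 Atg7-fl/fl;Cx3cr1-CreERT2 mice and the control group 3 Atg7-fl/fl littermates, so both groups carried the floxed Atg7 alleles and the Cre allele was present in the knockouts only. Loss of Atg7, a gene needed for autophagosome formation, and presence of the Cre allele were therefore varied together and cannot be told apart. CreERT2 is a Cre recombinase that needs an estrogen receptor ligand to become active. The sources used here do not give the ligand treatment. Cells negative for the dead-cell stain were sorted as intermediate for CD45 and positive for CD11b.

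P2Y receptors are coupled to G proteins, whereas P2X receptors are cation channels opened by ATP. In microglia, P2Y12 is known for steering processes towards sites of ATP release and is widely used as a marker of the resting state, P2Y6 for phagocytosis triggered by UDP, P2X4 for pain signalling in the spinal cord, and P2X7 for activating the NLRP3 inflammasome. CD39 takes the first steps in the conversion of extracellular ATP, and CD73 (Nt5e) makes adenosine from the AMP that results.

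Depth was uneven. The knockout libraries held 33129233, 3789208 and 21282335 reads and the control libraries 39389527, 38798703 and 1254380 reads, so knockout 2 and control 3 were the shallow libraries. Levels below are in CPM, the share of a library's reads on a scale where the whole library sums to 1e+06, after TMM scaling of the library totals, with replicates 1 to 3 in order, and 3 reads, taken as the floor of detection, were worth 0.0789 CPM in control 1, the deepest library, and 2.36 CPM in control 3, the shallowest. Atg7 had 25.0, 26.5 and 23.7 CPM in the knockouts, against 65.7, 66.4 and 56.6 CPM in the controls. Every knockout library lay below every control library for this gene (log2 fold change -1.33, SE 0.19, edgeR adjusted p = 0.0147), so the libraries matched their labels. Leaving out any 1 library other than control 3 ended that call (adjusted p = 0.0527 to 0.135), as did edgeR without its robust option on all libraries (adjusted p = 0.0660), while the fold change stayed between -1.39 and -1.29 in those fits. Reads of exons outside the deleted part still count towards Atg7.

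Markers of the sorted cell type were abundant. The 10 microglia markers summed to 38026 to 41944 CPM in the knockouts and to 50464 to 55235 CPM in the controls, and 10 of 10 had a lower mean in the knockouts, of which edgeR called only Cx3cr1. Cx3cr1, the locus named in the Cre allele, accounts for part of this, and the other 9 markers summed to 36873, 33900 and 36333 CPM in the knockouts and to 44218, 43917 and 39204 CPM in the controls. Markers of border-associated macrophages summed to 262, 169 and 65.0 CPM in the knockouts and to 15.3, 40.7 and 90.4 CPM in the controls, with 10 of 10 higher on average in the knockouts and 0 called. Neutrophil markers, led by S100a8 and S100a9, summed to 777, 213 and 82.6 CPM in the knockouts and to 19.6, 134 and 139 CPM in the controls. Monocyte markers summed to 142, 66.8 and 25.1 CPM in the knockouts and to 13.7, 37.8 and 47.1 CPM in the controls, and 0 markers of either cell type were called. Platelets express P2ry12 and mast cells express Adora3 in mice. Platelet markers summed to between 24.2 and 42.3 CPM in the knockouts and between 34.6 and 55.3 CPM in the controls. Nearly all of each sum was Gp9, at 23.4, 40.3 and 34.4 CPM in the knockouts and 54.1, 49.1 and 33.8 CPM in the controls. Each other platelet marker was at 1.82 CPM or less in every library, with Gp1bb at 0 reads throughout. Mast cell markers summed to at most 1.10 CPM in the knockouts and 2.36 CPM in the controls, with Tpsb2, Mcpt4 and Fcer1a at 0 reads in every library. The part these other cells play in the levels of the 8 genes was not tested beyond these values. In bulk samples, fewer cells of a type and less RNA per cell cannot be told apart.

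The comparison of knockouts with controls asked whether the nucleotide-sensing genes of microglia differ when Atg7 is lost. None of the 8 genes passed the test. EdgeR called 0 of 8 members, where it called 0.0443% of all genes tested, 5 of them higher and 2 lower. Without adjustment 0 of 8 had a p under 0.05, against 4.32% of all genes tested. DESeq2, which called 0.526% of genes, and limma voom, which called 0.0950%, called 0 of 8 as well. The knockout and control libraries overlapped in all 8 genes, whereas they were separate in 11.1% of genes tested. Fold changes ran from -0.16 for Adora3 to 0.13 for P2rx4 on the log2 scale, with 6 below 0, 2 above 0 and a median of -0.04. Over all genes tested 47.5% were below 0 and the median was 0.02. All 8 lay between the lower and upper quartiles of all genes tested, -0.23 and 0.29. Over the 8 genes the 95% intervals reached from a fall of 28.9% (Adora3, lower bound -28.9%) to a rise of 36.4% (P2rx4, upper bound 36.4%). Each gene's own interval, not adjusted for the number of genes, is given with it.

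**Figure D1:**
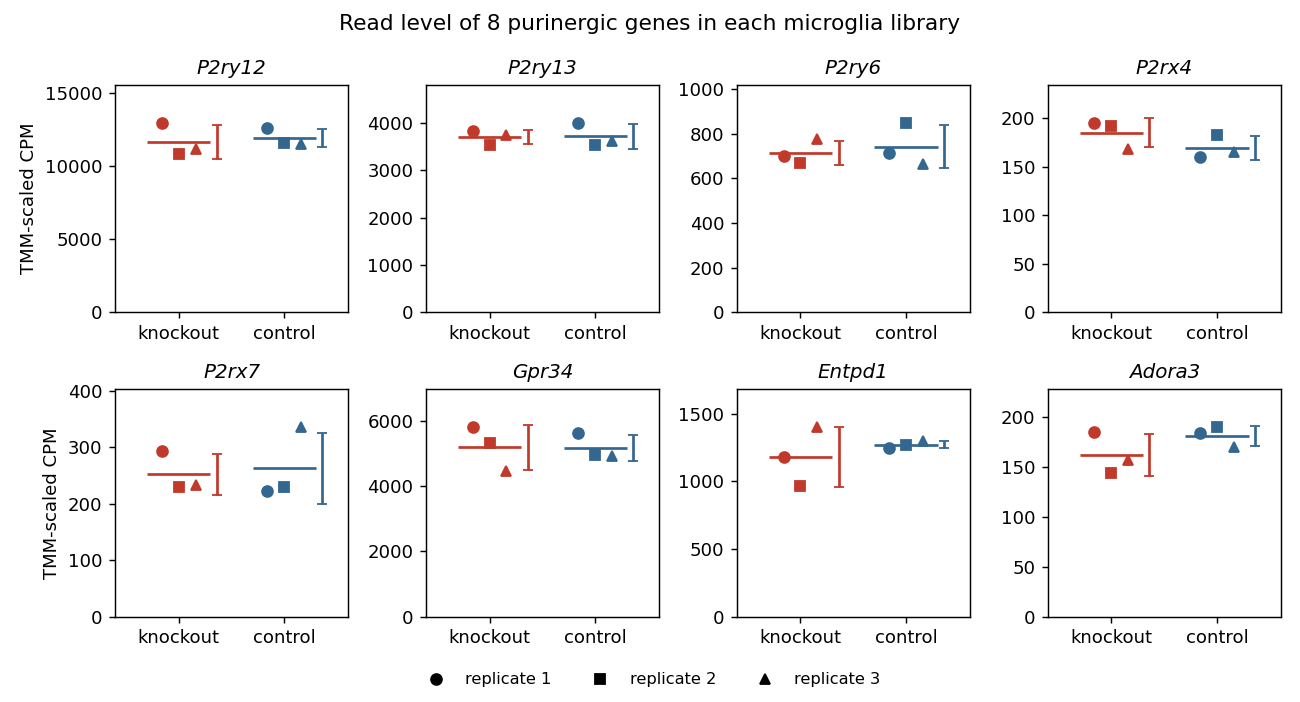
TMM-scaled CPM of each of the 8 genes in the 3 knockout libraries (red, left) and the 3 control libraries (blue, right), with the group mean as a line and the SD as a bar. Axes start at 0. In each panel the points of the groups overlap. P2rx7 in control 3 (336 CPM) stands away from the other controls. For Entpd1 the knockouts spread from 963 CPM (knockout 2) to 1402 CPM (knockout 3), on both sides of the controls.

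The ADP receptor gene P2ry12 (ENSMUSG00000036353, chromosome 3) was the most abundant of the 8. It had 12950, 10839 and 11133 CPM in the knockouts, against 12610, 11592 and 11526 CPM in the controls. Knockout 1 was the highest of the 6 libraries and the other knockouts were the lowest, so the groups overlapped. The means were 11641 CPM ± 1143 and 11909 CPM ± 608 (SD, n = 3 each), which gave -0.03 on the log2 scale (SE 0.10, edgeR adjusted p = 0.999) with a 95% interval from -16.1% to 13.9%.

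P2ry13 (ENSMUSG00000036362), the gene of a second Gi-coupled ADP receptor that lies beside P2ry12, had 3833, 3529 and 3735 CPM in the knockouts and 4000, 3523 and 3613 CPM in the controls. No knockout library lay outside the range of the controls. The log2 fold change was -0.01 (SE 0.11, edgeR adjusted p = 0.999), with an interval from -15.4% to 17.4%. In each library P2ry12 had between 2.98 and 3.38 reads for every read of P2ry13. That ratio of reads was 3.38, 3.07 and 2.98 in the knockouts and 3.15, 3.29 and 3.19 in the controls, which overlap.

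Both genes lie within the span of Med12l on the opposite strand in the GENCODE M21 annotation. The exons of P2ry12 share 9 bases with those of Med12l, and P2ry13 shares 0. Med12l, which encodes a subunit of a Mediator kinase module, had 76.4, 79.7 and 71.9 CPM in the knockouts and 101, 85.5 and 98.2 CPM in the controls. All 3 knockouts lay below all 3 controls, and the fold change did not pass the test (log2 -0.32, SE 0.16, edgeR unadjusted p = 0.0649, adjusted p = 0.999). The strand setting of the read counting is not stated in the sources used here. Reads of the 9 shared bases therefore cannot be assigned with certainty. The start regions of both genes are shown because these neighbours had the smallest difference in profile over the libraries of any pair among the 8. Each sequence runs from 250 bases before to 50 bases after the RefSeq start (GRCm38.p6, minus strand), at chr3:59262936-59263235 for P2ry12 and chr3:59210833-59211132 for P2ry13. Capitals mark letters of the antioxidant response element core TGACNNNGC in P2ry12 and of GAGGAA, a part of the PU.1 motif GAGGAAGT, in P2ry13.
P2ry12: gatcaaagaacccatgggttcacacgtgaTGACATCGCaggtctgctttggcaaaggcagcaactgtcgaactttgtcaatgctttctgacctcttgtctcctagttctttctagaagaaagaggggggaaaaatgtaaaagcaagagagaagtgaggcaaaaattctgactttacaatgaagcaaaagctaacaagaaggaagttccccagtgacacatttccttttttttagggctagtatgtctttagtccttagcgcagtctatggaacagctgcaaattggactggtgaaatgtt
P2ry13: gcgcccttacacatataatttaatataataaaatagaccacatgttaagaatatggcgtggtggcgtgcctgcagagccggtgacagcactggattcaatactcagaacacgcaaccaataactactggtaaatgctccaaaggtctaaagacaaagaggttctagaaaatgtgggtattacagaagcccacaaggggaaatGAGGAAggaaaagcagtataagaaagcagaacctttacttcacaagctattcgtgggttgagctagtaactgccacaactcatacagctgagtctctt

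Start regions were matched in the RefSeq table for 6 of the 8 genes, the others being P2ry6 and Gpr34, as 8 windows of 300 bases. Both strands were searched for the motif GAGGAAGT of PU.1, a transcription factor of the macrophage lineage, and for GAGGAA, a part of that motif. The AP-1 motif TGACTCA and the antioxidant response element core TGACNNNGC were searched as well. Other forms of the PU.1 motif were not searched, so a gene without a match may hold one of them. The PU.1 motif was found in P2rx7 and Adora3, against 3.2% of 32851 windows in the table. The shorter GAGGAA was found in P2ry13, P2rx7, Entpd1 and Adora3, against 28.3% of windows. The AP-1 motif was found in P2rx7 and Adora3, against 5.2% of windows, and TGACNNNGC in P2ry12, P2rx4 and P2rx7, against 12.4% of windows. A gene was counted if any of its windows matched, and P2rx7 and Entpd1 had 2 windows each. The genes are therefore not on the same scale as the shares of windows, and no enrichment was tested. These are matches of letters and do not show that a factor binds.

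P2ry6 (ENSMUSG00000048779, chromosome 7), the gene of a Gq-coupled UDP receptor, had 700, 667 and 774 CPM in the knockouts and 712, 848 and 662 CPM in the controls. The controls spanned all 3 knockout values. Its log2 fold change was -0.05 (SE 0.14, edgeR adjusted p = 0.999), with an interval from -21.7% to 18.6%.

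The ATP-gated channel gene P2rx4 (ENSMUSG00000029470, chromosome 5) had 195, 192 and 168 CPM in the knockouts and 160, 183 and 165 CPM in the controls. Knockouts 1 and 2 lay above all controls, and knockout 3 lay between them. The log2 fold change was 0.13 (SE 0.15, edgeR adjusted p = 0.999), the highest of the 8, with an interval from -12.8% to 36.4%. Control 3 held 210 P2rx4 reads, which alone gives a counting error of 6.90%.

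P2rx7 (ENSMUSG00000029468), a channel gene on the same chromosome, had 294, 229 and 233 CPM in the knockouts and 223, 230 and 336 CPM in the controls. Knockout 1 and control 3 were high, and the other 4 libraries lay between 223 and 233 CPM. The log2 fold change was -0.06 (SE 0.18, edgeR adjusted p = 0.999), with an interval from -26.4% to 25.7%. Without control 3 the fold change was 0.14 (SE 0.15, adjusted p = 0.939), and it was 0.21 without both shallow libraries (SE 0.15, adjusted p = 0.871). Without knockout 1 it was -0.20 (SE 0.21), and limma voom gave 0.11 with all libraries. Control 3 held 427 reads of P2rx7, a counting error of 4.84%. The P2rx7 exons share 1.99% of their bases with the microRNA gene Mir8115 on the same strand.

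The second RefSeq start region of P2rx7 is printed because it was one of the windows with the full PU.1 motif, at chr5:122650133-122650432 on the plus strand of GRCm38.p6. Capitals mark the PU.1 letters, read on the opposite strand.
P2rx7: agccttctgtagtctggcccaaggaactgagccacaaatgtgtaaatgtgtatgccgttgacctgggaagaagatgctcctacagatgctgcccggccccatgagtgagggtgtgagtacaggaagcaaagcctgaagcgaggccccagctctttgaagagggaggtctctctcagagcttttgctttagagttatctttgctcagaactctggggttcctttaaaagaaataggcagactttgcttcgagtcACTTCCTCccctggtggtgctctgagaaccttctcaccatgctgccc

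Gpr34 (ENSMUSG00000040229, chromosome X) had 5816, 5316 and 4456 CPM in the knockouts and 5627, 4946 and 4922 CPM in the controls. Knockout 1 was the highest and knockout 3 the lowest of the 6 libraries. The log2 fold change was 0.01 (SE 0.12, edgeR adjusted p = 0.999), with an interval from -15.9% to 20.4%. Gpr34 lies within the span of Cask on the opposite strand and shares 0 exon bases with it. Cask, a scaffold kinase gene, had 99.1, 77.4 and 130 CPM in the knockouts and 145, 133 and 155 CPM in the controls. Every knockout lay below every control for Cask (log2 -0.49, SE 0.19, edgeR unadjusted p = 0.0208), but this did not pass over all genes (adjusted p = 0.999).

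Entpd1 (ENSMUSG00000048120, chromosome 19) had 1178, 963 and 1402 CPM in the knockouts and 1248, 1271 and 1298 CPM in the controls. The controls lay close together, with an SD of 25.2 CPM, while the knockouts spread on both sides of them with an SD of 219 CPM. Knockout 2, a shallow library, was the lowest and knockout 3 the highest of all 6 libraries. The log2 fold change was -0.11 (SE 0.14, edgeR adjusted p = 0.999), with an interval from -25.0% to 14.9%, and it was 0.00 without knockout 2 and -0.27 without knockout 3 (SE 0.15, unadjusted p = 0.0937).

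Adora3 (ENSMUSG00000000562, chromosome 3) had 185, 144 and 157 CPM in the knockouts and 184, 190 and 170 CPM in the controls. Knockouts 2 and 3 lay below all controls, and knockout 1 was among them. The log2 fold change was -0.16 (SE 0.16, edgeR adjusted p = 0.999), the lowest of the 8, with an interval from -28.9% to 12.6%. The exons of Adora3 share 20.9% of their bases with Tmigd3 on the same strand, so the assignment of part of its reads is uncertain. Tmigd3 itself had 2.19, 4.42 and 3.53 CPM in the knockouts and 2.10, 3.23 and 0 CPM in the controls, and a second entry of that symbol had 0 reads in every library.

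The start region of Adora3 is shown for the same reason as that of P2rx7. It lies at chr3:105904171-105904470 on the plus strand of GRCm38.p6. Capitals mark the AP-1 letters and, further on, the PU.1 letters read on the opposite strand.
Adora3: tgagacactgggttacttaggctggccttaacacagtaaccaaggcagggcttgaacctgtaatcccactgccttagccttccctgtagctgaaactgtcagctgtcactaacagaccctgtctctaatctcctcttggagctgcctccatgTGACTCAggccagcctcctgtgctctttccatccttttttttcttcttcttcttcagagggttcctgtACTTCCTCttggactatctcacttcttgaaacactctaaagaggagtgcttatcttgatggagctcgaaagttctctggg

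**Figure D2:**
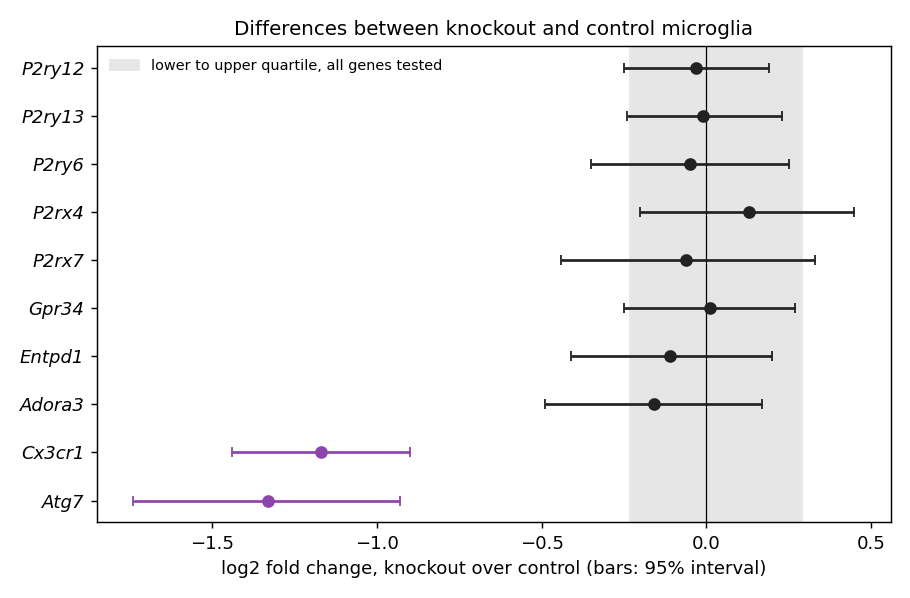
Log2 fold change of knockout over control from edgeR with its 95% interval (bars) for the 8 genes (black) and for Cx3cr1 and Atg7 (purple); the grey band spans the lower to the upper quartile of all genes tested, -0.23 to 0.29. All 8 intervals include 0, whereas those of Cx3cr1 (-1.44 to -0.90) and Atg7 (-1.74 to -0.93) do not.

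Cx3cr1, the fractalkine receptor gene and another surface marker of resting microglia, gave a contrast with P2ry12 within each library. It had 4394, 4126 and 5611 CPM in the knockouts and 11018, 9581 and 11260 CPM in the controls (log2 fold change -1.17, SE 0.13, edgeR adjusted p = 0.00126). For each Cx3cr1 read there were 2.95, 2.63 and 1.98 P2ry12 reads in the knockouts and 1.14, 1.21 and 1.02 in the controls, without overlap. Presence of the Cre allele named for Cx3cr1 and loss of Atg7 cannot be told apart as the source of the Cx3cr1 difference.

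Together the 8 genes took 2.56%, 2.22% and 2.23% of all reads in the knockouts and 2.39%, 2.18% and 2.30% in the controls, so their joint share overlapped between the groups. Summed levels were 25151, 21880 and 22060 CPM in the knockouts and 24765, 22783 and 22692 CPM in the controls. Without P2ry12 the sums were 12201, 11040 and 10926 CPM in the knockouts and 12154, 11191 and 11166 CPM in the controls.

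Levels of different genes were compared as CPM per kb of exon, with exon lengths from GENCODE M21. On this scale P2ry12 averaged 4572 ± 449 in the knockouts and 4678 ± 239 in the controls (SD, n = 3 each), and it ranked 7 among 15769 tested genes with a length. Gpr34 averaged 2486 ± 329 in the knockouts and 2471 ± 192 in the controls, at rank 17, and P2ry13 1463 ± 61.4 and 1468 ± 100, at rank 36. These first 3 kept the same order in 6 of 6 libraries, and the range of each over the 6 libraries lay apart from that of the next.

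P2ry6 and Entpd1 came next at between 229 and 294 and between 173 and 251 CPM per kb. Their ranges overlapped, and P2ry6 was the higher in 5 of 6 libraries. Adora3, at between 38.7 and 50.9 CPM per kb, and P2rx7, at between 37.4 and 56.2, overlapped as well. The uncertain assignment of reads on the exon bases that Adora3 shares with Tmigd3 also applies to its level per length. P2rx4 was the lowest of the 8 in every library on this length, at between 22.8 and 27.8 CPM per kb, below P2rx7 by a factor of 1.40 to 2.39. The Gi-coupled P2Y receptors and GPR34 thus stood above the P2X channels per exon length in all 6 libraries of both groups. With the longest transcript as the length in place of all exons, P2rx4 averaged 45.5 in place of 25.2 and P2ry6 374 in place of 252 CPM per kb, and the order of the 8 means was unchanged. On that length P2rx7 was above P2rx4 in 4 of 6 libraries, and P2rx4 was the higher in knockout 2 and control 2, where P2rx7 stood at 0.942 times its level or more. P2ry6 was then above Entpd1, and Adora3 above P2rx7, in 6 of 6 libraries.

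**Figure D3:**
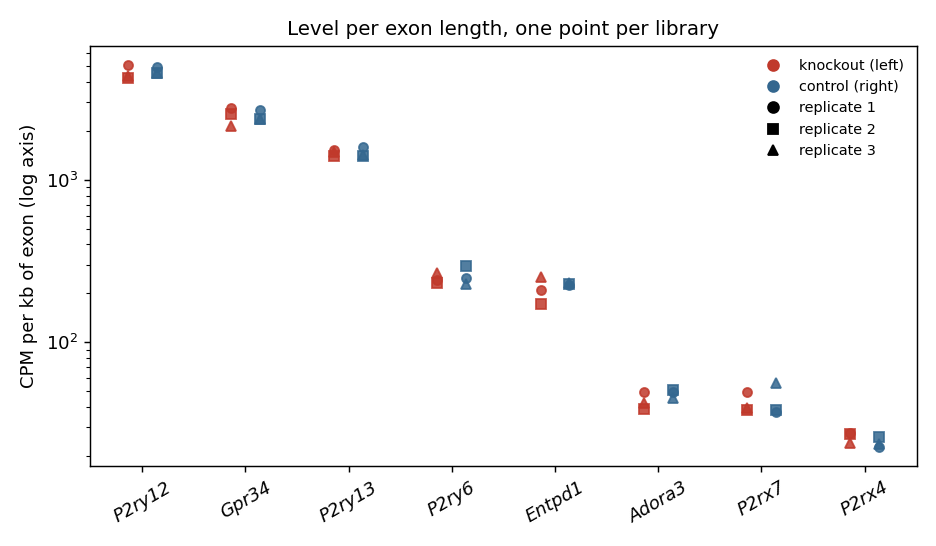
CPM per kb of exon on a log axis for the 8 genes, ordered by their mean, with 1 point per library (knockouts red and left, controls blue and right). P2ry12, Gpr34 and P2ry13 lie at 1393 or higher, P2ry6 and Entpd1 between 173 and 294, and Adora3, P2rx7 and P2rx4 between 22.8 and 56.2.

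The other receptors of these families were mostly sparse. Of 11 other genes with a P2ry or P2rx symbol, which by itself does not establish a nucleotide as the ligand, 4 passed the filter. EdgeR called 0 of the 4 (with an unadjusted p under 0.05 for 1 lower and 0 higher genes, and 0 called by DESeq2 or voom). P2ry10b, picked out after its values were seen as the highest of the 4 per exon length (8.57 CPM per kb), averaged 28.6 ± 7.07 CPM in the knockouts and 30.8 ± 7.84 CPM in the controls (SD, n = 3 each; log2 -0.10, SE 0.26). P2rx1, an ATP-gated channel gene, averaged 10.3 ± 2.33 CPM in the knockouts (439, 34 and 196 reads) and 17.4 ± 1.28 CPM in the controls (645, 611 and 24 reads; SD, n = 3 each). All 3 knockouts lay below all 3 controls, and the log2 fold change was -0.73 (SE 0.30, edgeR unadjusted p = 0.0283, adjusted p = 0.999). P2ry14, the gene of a UDP-glucose receptor in the same cluster as P2ry12 and P2ry13, averaged 5.12 ± 3.78 CPM in the knockouts and 3.14 ± 4.10 CPM in the controls (SD, n = 3 each), which overlap (log2 1.19, SE 1.13). Its fold change was 2.64 without control 3 (SE 0.79, edgeR unadjusted p = 0.00550, adjusted p = 0.335) and 0.42 without control 1 (SE 1.03). Of the 3 other adenosine receptor genes Adora1 was tested, with 0.414, 1.56 and 2.98 CPM in the knockouts and 1.66, 3.84 and 3.14 CPM in the controls (log2 -0.79, SE 0.78), and edgeR, DESeq2 and voom called 0, with 0 at an unadjusted p under 0.05.

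Enzymes that act beside CD39 were also low. Of 8 genes of extracellular nucleotide breakdown 3 were tested and edgeR, DESeq2 and voom called 0, with 0 at an unadjusted p under 0.05. Nt5e, which encodes CD73, had 0.296, 1.30 and 0.697 CPM in the knockouts and 0.316, 0.188 and 0.786 CPM in the controls, under the floor of the shallow control library. Per exon length the mean of Nt5e over the 6 libraries was 0.0694 CPM per kb and that of Entpd1 was 220 CPM per kb. Enpp1, a nucleotide pyrophosphatase gene, had 21.8, 9.87 and 12.2 CPM in the knockouts and 20.4, 15.7 and 28.3 CPM in the controls (log2 -0.49, SE 0.33), with -0.94 without knockout 1, -0.29 without control 3 and -0.09 without both shallow libraries. Of the 4 intracellular relatives of Entpd1, 3 were tested. Entpd5 had 20.6, 18.7 and 14.6 CPM in the knockouts and 21.6, 17.2 and 37.7 CPM in the controls, which overlap, and Entpd7 had a log2 fold change of -0.10 (SE 0.17). EdgeR, DESeq2 and voom called 0 of these 3, with 0 at an unadjusted p under 0.05.

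Among 7 genes of adenosine uptake and conversion, 6 were tested and 0 called by edgeR, DESeq2 or voom (0 at an unadjusted p under 0.05). Slc29a3, an intracellular nucleoside transporter gene, had 685, 640 and 724 CPM in the knockouts and 775, 808 and 779 CPM in the controls. The knockouts lay below the controls without overlap, by -0.21 on the log2 scale (SE 0.13, edgeR adjusted p = 0.999, unadjusted p = 0.129). Slc29a1, the plasma membrane nucleoside transporter gene ENT1, was at 201, 185 and 182 CPM in the knockouts and 193, 195 and 194 CPM in the controls. Slc29a2 had 15.5, 13.5 and 12.1 CPM in the knockouts and 9.39, 12.1 and 7.86 CPM in the controls (log2 0.45, SE 0.32). Its knockouts lay above the controls, with knockout 3 and control 2 nearly equal. Of 7 ATP release genes 6 were tested and 0 called by edgeR, DESeq2 or voom, with 0 at an unadjusted p under 0.05. Lrrc8a, the volume-regulated anion channel gene, had 469, 394 and 490 CPM in the knockouts and 545, 525 and 435 CPM in the controls, and Calhm6 had a log2 fold change of -0.24 (SE 0.29).

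Signalling genes downstream of P2Y12 were measured in 15 of 16 cases, and edgeR, DESeq2 and voom called 0 (with an unadjusted p under 0.05 for 1 lower and 0 higher genes, and a median log2 fold change of -0.01). Arrb2, which encodes the receptor adaptor beta-arrestin 2, had 105, 115 and 122 CPM in the knockouts and 178, 164 and 126 CPM in the controls. The knockouts lay below the controls, with control 3 near them (log2 -0.46, SE 0.17, edgeR unadjusted p = 0.0162, adjusted p = 0.999). Gng5, a G protein gamma subunit gene, had a log2 fold change of 0.37 (SE 0.21). Gnb1, a G protein beta subunit gene, had 1280, 1251 and 1282 CPM in the knockouts and 1490, 1300 and 1059 CPM in the controls, and Rgs10, a regulator of Gi signalling, averaged 617 CPM ± 47.2 and 584 CPM ± 85.8 in the same order (SD, n = 3 each).

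Kcnk13 encodes THIK-1, the potassium channel that P2Y12 activation opens in microglia, and was picked out after its values were seen. It had 55.1, 49.4 and 55.2 CPM in the knockouts and 96.9, 107 and 31.4 CPM in the controls. Controls 1 and 2 lay well above all knockouts and control 3, with 40 reads, lay below them. With all libraries its log2 fold change was -0.59 (SE 0.41, edgeR adjusted p = 0.999). Without control 3 it was -0.94 (SE 0.16, edgeR adjusted p = 0.0290), a call made in that fit and in none of the other 15 alternatives, whose adjusted p-values were 0.0690 or more.

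**Figure D4:**
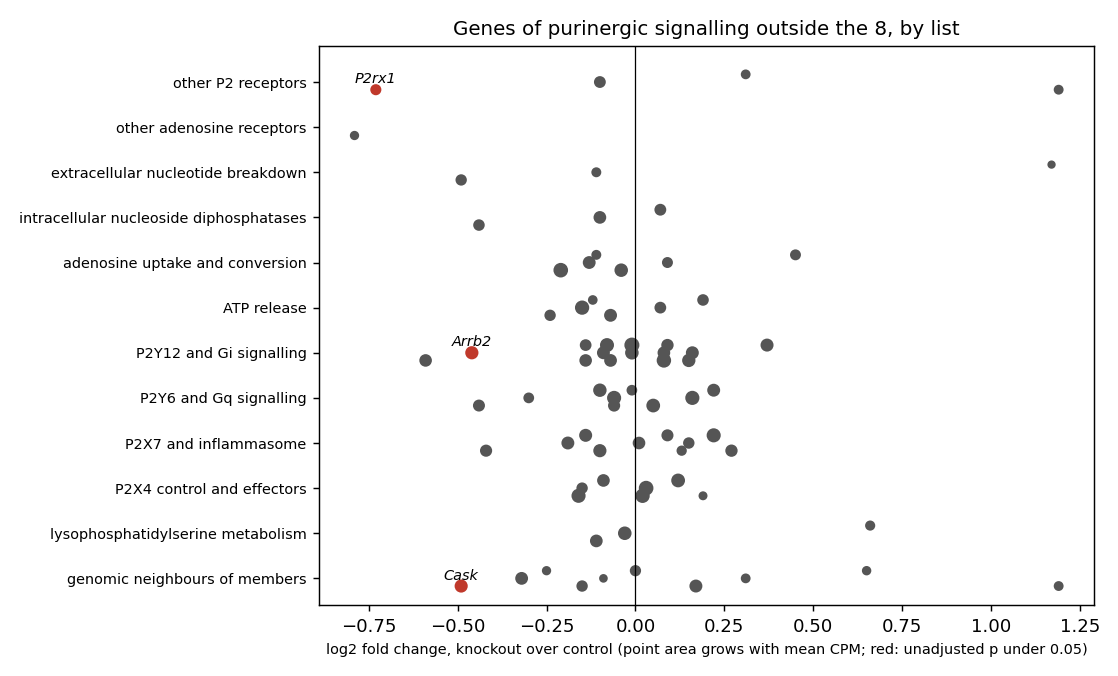
Log2 fold change of knockout over control for the tested genes of 12 lists around purinergic signalling, 1 point per gene; the area of a point grows with its mean CPM and red marks an unadjusted p under 0.05. P2rx1, Arrb2 and Cask are the red points, all below 0, and P2ry14 at 1.19 appears in 2 lists.

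Of 10 genes of Gq signalling, which P2Y6 uses, 9 were tested and edgeR, DESeq2 and voom called 0, with 0 at an unadjusted p under 0.05 and a median log2 fold change of -0.06. Plcb2, a phospholipase C gene, had 29.2, 26.5 and 34.0 CPM in the knockouts and 43.4, 44.0 and 33.0 CPM in the controls (log2 -0.44, SE 0.21), and Rac2, a GTPase gene of phagocytes, had a log2 fold change of 0.16 (SE 0.15). All 10 genes of the P2X7 and inflammasome list were tested and 0 called by edgeR, DESeq2 or voom, with 0 at an unadjusted p under 0.05 and a median of 0.05. Nlrp3, the inflammasome sensor gene, had 42.1, 31.4 and 32.5 CPM in the knockouts and 48.9, 31.9 and 64.4 CPM in the controls. Its highest library was control 3, the shallowest, with 82 Nlrp3 reads. Control 3 was also the highest for P2rx7 and for genes of other lists such as Entpd5 (37.7 CPM) and Enpp1 (28.3 CPM). A link between Nlrp3 and P2rx7 was not tested. Txnip had 437, 410 and 424 CPM in the knockouts and 387, 386 and 315 CPM in the controls, without overlap (log2 0.22, SE 0.14, edgeR adjusted p = 0.999).

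Of 8 genes that act with P2X4, 7 were tested. EdgeR, DESeq2 and voom called 0, with 0 at an unadjusted p under 0.05. Irf5, a transcription factor gene reported to drive P2rx4 in reactive microglia, had 345, 344 and 438 CPM in the knockouts and 403, 461 and 393 CPM in the controls. Bdnf, the growth factor gene linked to P2X4 in spinal microglia and named here for that role, was not tested and had 0.237, 0 and 0 CPM in the knockouts and 0 CPM in each control. Of 4 genes listed for the metabolism of lysophosphatidylserine, the ligand of GPR34, 3 were tested and edgeR, DESeq2 and voom called 0, with 0 at an unadjusted p under 0.05. Lyplal1 had a log2 fold change of 0.66 (SE 0.46) at under 10 CPM, with all knockouts above all controls. Abhd16a, a phosphatidylserine lipase gene, had -0.11 (SE 0.18).

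Over all lists, with each gene counted once and without the 8, 73 of 97 genes were tested. EdgeR, DESeq2 and voom called 0, and edgeR gave an unadjusted p under 0.05 for 3 lower genes (P2rx1, Arrb2 and Cask) and 0 higher genes. All genes tested had such a p on the lower side in 1.98% and on the higher side in 2.34% of cases. The median log2 fold change of the 73 genes was -0.06, beside 0.02 over all genes tested. Among the list genes named here, the groups did not overlap for P2rx1, Slc29a3, Arrb2, Med12l and Cask, with the knockouts lower. They also did not overlap for Slc29a2, Txnip and Lyplal1, with the knockouts higher. Over all genes tested 11.1% had groups that did not overlap.

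Profiles over the 6 libraries were compared by the root mean square (RMS) difference of log2 CPM after each gene was centred on its own mean, among 7582 other protein-coding genes with at least 10 CPM. P2ry12 and P2ry13 differed by 0.0598, where the spread of each about its own mean was 0.0920 for P2ry12 and 0.0662 for P2ry13, so both profiles were nearly flat. Each was the closest of the 8 to the other, at place 35 among all genes for P2ry12 and place 45 for P2ry13. The 2 genes closest to P2ry12 were Kmt2e (RMS difference 0.0358) and Adgre1 (0.0370), which encodes the macrophage surface protein F4/80. Inpp4b (0.0189) was the closest to P2ry13. The median RMS difference from P2ry12 over all genes was 0.254, and from P2ry13 it was 0.246.

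For Gpr34 the closest genes were Rap2c (0.0383) and Mterf3 (0.0443), and for Adora3 Slc35b4 (0.0442) and Gosr2 (0.0480). Among the 8, P2ry12 was the closest to both, at 0.0896 and 0.0900, beside own spreads of 0.129 for Gpr34 and 0.142 for Adora3. P2ry6 lay closest to Copz1 (0.0348) and Alkbh6 (0.0351), P2rx4 to Hsd17b10 (0.0435) and Sh3glb1 (0.0487), and Entpd1 to Inpp5d (0.0420) and Eif3c (0.0425). P2rx7 stood farthest from the rest. Its closest genes, Mctp1 (0.0481) and Fam45a (0.0632), shared its high value in control 3, with Mctp1 at 82.5 CPM there, against 51.6 and 54.3 CPM in controls 1 and 2, and its closest gene among the 8 was P2ry12 at 0.220, about its own spread of 0.223. These distances describe 6 libraries that differ in depth.

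**Figure D5:**
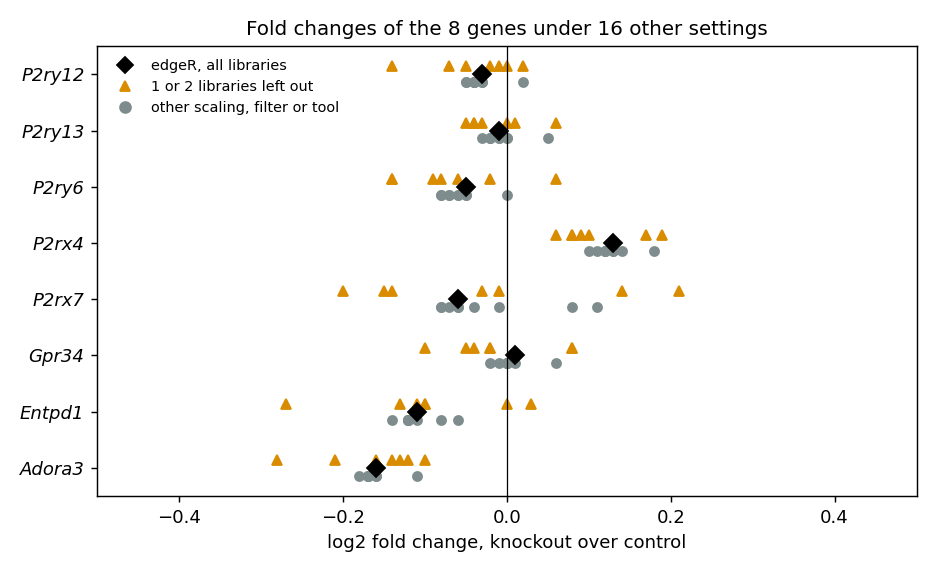
Log2 fold change of knockout over control for the 8 genes with edgeR on all libraries (black diamonds), with 1 or 2 libraries left out (orange triangles) and with another scaling, filter, tool or a replicate block (grey circles). All values lie between -0.28 and 0.21, P2rx4 stays above 0 and Adora3 below 0 in all 16 alternatives, and the other 6 genes fall on both sides of 0.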

How the data were processed

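The deposited table holds unnormalized read counts, 1 row per Ensembl gene, per the file headers. Per the submitters' processing notes the authors used bcl2fastq, STAR, Subread featureCounts and Salmon with GRCm39. Annotation release and strand setting are not stated in those sources. The labels' protocols describe amplified SMARTer cDNA without molecular identifiers, so floors and counting errors cover counting error only. Of 55774 rows, 287 repeated an identifier with the same counts and were dropped. Rows naming no gene numbered 0. EdgeR 4.0.16 (R 4.3.3) was run on the counts with filterByExpr and TMM scaling, and the group was tested by the robust quasi-likelihood method, two-sided, with Benjamini-Hochberg adjustment over 15787 genes and a threshold of 0.05. The SE is the fold change over the square root of its F statistic. The steps were also run on simulated counts, with changes put in that were larger than those of the 8 members. That run does not show how well changes as small as theirs are found. Alternatives were DESeq2 1.42.0, limma 3.58.1 (voom), other scalings and filters, a replicate block and libraries left out. Exon lengths and overlaps come from GENCODE M21, an annotation of GRCm38 that held 99.4% of the identifiers, and start regions from RefSeq on GRCm38.p6. Members, lists and tests were chosen with earlier results of these data known. Besides the 8 members and Atg7, the genes named are the 2 closest in profile to each member, genes whose exons or span overlap a member, and from each list any called gene, otherwise the 2 with the smallest p, and some at 100 CPM or more in both groups. Kcnk13, Bdnf and P2ry10b fall outside this rule, and 2 genes within it are not reported here.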

Additional observations from a re-analysis of the deposited data

How the results depend on the processing

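None of the 8 genes was called under any of the 16 alternatives, and their fold changes stayed between -0.28 and 0.21 on the log2 scale. P2rx4 stayed above 0 and Adora3 below 0 in all 16. The other 6, near 0 with all libraries, changed sign in some. With library totals in place of TMM, which moves the median of all genes to 0.08, P2ry12 had 0.02, P2ry13 0.05 and P2ry6 0.00. Gpr34 had -0.00 with DESeq2 size factors, with DESeq2 and with library weights in voom, -0.02 without a filter and -0.01 in voom. P2rx7 had 0.11 in voom and 0.08 in voom with library weights. Without both shallow libraries the values were 0.00 for P2ry13, 0.21 for P2rx7, -0.05 for Gpr34 and 0.03 for Entpd1. Leaving out each library in turn gave -0.14 to 0.02 for P2ry12, -0.05 to 0.06 for P2ry13, -0.14 to 0.06 for P2ry6, -0.20 to 0.14 for P2rx7, -0.10 to 0.08 for Gpr34, -0.27 to 0.00 for Entpd1 and -0.24 to 0.02 for Abhd16a. P2rx4 had 0.06 to 0.19 and Adora3 -0.28 to -0.10. Of 24 genes from the lists, 16 likewise moved to more than 1.5 times their log2 fold change or by as much towards 0, among them P2ry14 (0.42 to 2.64), Adora1 (-1.69 to -0.31), Enpp1 (-0.94 to -0.29), Entpd5 (-0.67 to -0.12), Calhm6 (-0.50 to -0.02), Gng5 (0.17 to 0.50) and Nlrp3 (-0.66 to -0.20). The causes of these changes were not tested.

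Against 5 genes called higher and 2 lower, the counts were 60 and 42 without a filter, 49 and 34 with DESeq2, 9 and 6 with voom, 2 higher in voom with library weights, 1 and 1 without the robust option, and 9 and 30 without both shallow libraries. With a library left out they ran from 1 to 15 higher and from 1 to 35 lower, and both highest counts came without control 3. The correlations of the libraries' deviations from the group means were 0.30, -0.22 and -0.06 for replicate numbers 1, 2 and 3. Not every library correlated best with its own number, and the shallow knockout 2 and control 3 correlated at 0.29. With 3 libraries per group, 1 of them shallow in each, these values cannot show whether replicate numbers paired the samples. With a replicate block 16 genes were called higher and 9 lower, and 0 members. P2ry14, Adora1 and Nt5e had no value under the stricter filter. Control 3, with 1254380 reads, held 210 reads of P2rx4, 427 of P2rx7 and 216 of Adora3. The counting errors at these reads were 6.90%, 4.84% and 6.80%. The part that depth plays in the spread of these genes was not tested.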
